A study of Mus musculus with 6 samples.

Results

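Transcripts of 10 genes of the insulin-like growth factor (IGF) and insulin pathway were described in sorted mouse pituitary cells: the ligand gene Igf1, the receptor genes Igf1r, Insr and Igf2r, the adaptor genes Irs1 and Irs2, the binding protein genes Igfbp2, Igfbp4 and Igfbp5, and the protease gene Pappa2. The members were named by symbol, and each was represented by its transcript row of highest mean FPKM. All 10 had a row among 22869 genes with a symbol. Of these genes, 11642 had a mean of at least 1 FPKM (mapped fragments scaled by transcript length and library depth) and were tested, 9 of the members among them, and Irs1 was described without a test. The libraries came from somatotropes, which secrete growth hormone, and lactotropes, which secrete prolactin. Both were sorted by flow cytometry from pituitaries of female CD1 x C57BL/6 hybrid mice at 6 to 8 weeks of age, with 3 libraries per cell type titled biological replicates 1 to 3, and the labels name no treatment. The marker used to sort and the number of animals per library are not given in the sources used here.

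IGF-1 is made in liver and many other tissues under the control of growth hormone, and it acts back on the pituitary to restrain growth hormone secretion. It signals through the IGF-1 receptor tyrosine kinase, which, like the closely related insulin receptor, phosphorylates insulin receptor substrate (IRS) adaptors and so recruits phosphoinositide 3-kinase and AKT. IGF-binding proteins hold IGFs in the extracellular space, and metalloproteases of the pappalysin family, such as PAPP-A2, cleave some of them and free the ligand.

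Libraries of the same replicate number resembled each other. Gh was highest in the 3 somatotrope libraries (19384 to 84909 FPKM, against 3954 to 7623 in lactotropes) and Prl in the 3 lactotrope libraries (25171 to 195325 FPKM, against 8709 to 24481 in somatotropes), so the labels held for both hormones, narrowly for Prl. Other listed markers were less clear. Of 6 somatotrope markers, Gh included, 2 were higher in the somatotrope library in all 3 pairs and 2 in the lactotrope library. Of 6 lactotrope markers, Prl included, 3 were higher in the lactotrope library in all 3 pairs and 0 in the somatotrope library. Over all tested genes these shares were 22.9% toward somatotropes and 11.2% toward lactotropes. Neither hormone was restricted to its own cell type. Prl took up 46.6% and 53.0% of the summed FPKM in lactotropes 1 and 3. Lactotrope 3 had a 0 for 14.9% of the tested genes, where the remaining 5 had one for 0.232% to 2.95%. Such a listed 0 is not read as absence. In somatotropes 2 and 3 and lactotrope 3, 49.7% to 50.6% of the values above 0 had a further decimal, and it was always a 5, as in a mean of 2 values. No source used here says whether those values are means. The table used here gives no fragment totals. Low values of single-exon olfactory receptor genes stood on whole fragments in replicate 1, which puts the depth at about 29300000 fragments in somatotrope 1 and 17600000 in lactotrope 1. It is unknown for the other 4 libraries. Markers of further cell types were also present, with sums of 96.2 to 5778 FPKM for corticotropes and melanotropes (Pomc and Tbx19 the most abundant), 134 to 1780 for gonadotropes (Cga, Lhb), 6.37 to 90.9 for thyrotropes (Tshb, Dio2) and 5.33 to 4259 for erythroid cells (Hba-a1, Hba-a2). Fibroblast and mural markers (Col1a2, Dcn) summed to 21.9 to 73.9 FPKM and endothelial ones (Plvap, Esam) to at most 3.98 FPKM. In sorted populations such as these, fewer cells of a type and less RNA per cell cannot be told apart.

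On average over the 6 libraries, the members fell into abundant and scarce transcripts. FPKM is scaled by transcript length, which puts genes on one scale, but ratios between members differed widely between replicates. Levels of different genes are therefore compared only roughly. Igfbp5 was the most abundant member in 5 of the 6 libraries, and Irs2 was in lactotrope 3. Averaged over the 6 libraries, Igfbp5 stood at 31.9 FPKM, Igfbp2 at 16.9, Irs2 at 8.40 and Igfbp4 at 5.86. Pappa2 averaged 4.41 FPKM through 1 library. The receptors and Igf1 averaged 1.13 to 1.42 FPKM, and Irs1 0.484 FPKM. This order did not hold in replicate 1. In somatotrope 1, Igfbp4 (2.30 FPKM) and Igfbp2 (1.34 FPKM) lay below the receptors (2.54 to 2.65 FPKM). In lactotrope 1, Igfbp2 (1.32 FPKM) lay below them too (1.83 to 3.63 FPKM). The spread between libraries was wide: Igf1r, Igf2r, Insr, Irs1 and Pappa2 were higher in replicate 1 than in replicates 2 and 3 in both cell types, and Igfbp2 was lower. Genes in general were also higher in replicate 1. Median-ratio size factors, a typical level of each library, were 1.79 in both replicate 1 libraries and 0.634 to 0.957 in the others. By GENCODE transcript lengths, the 5 members higher in replicate 1 had 8887 to 11409 bases and Igfbp2 had 1307. The part of library scaling or transcript length in these shifts was not tested. Over replicates 2 and 3 alone, 4 members reached a mean of 1 FPKM, and these were Irs2, Igfbp2, Igfbp4 and Igfbp5.

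**Figure D1:**
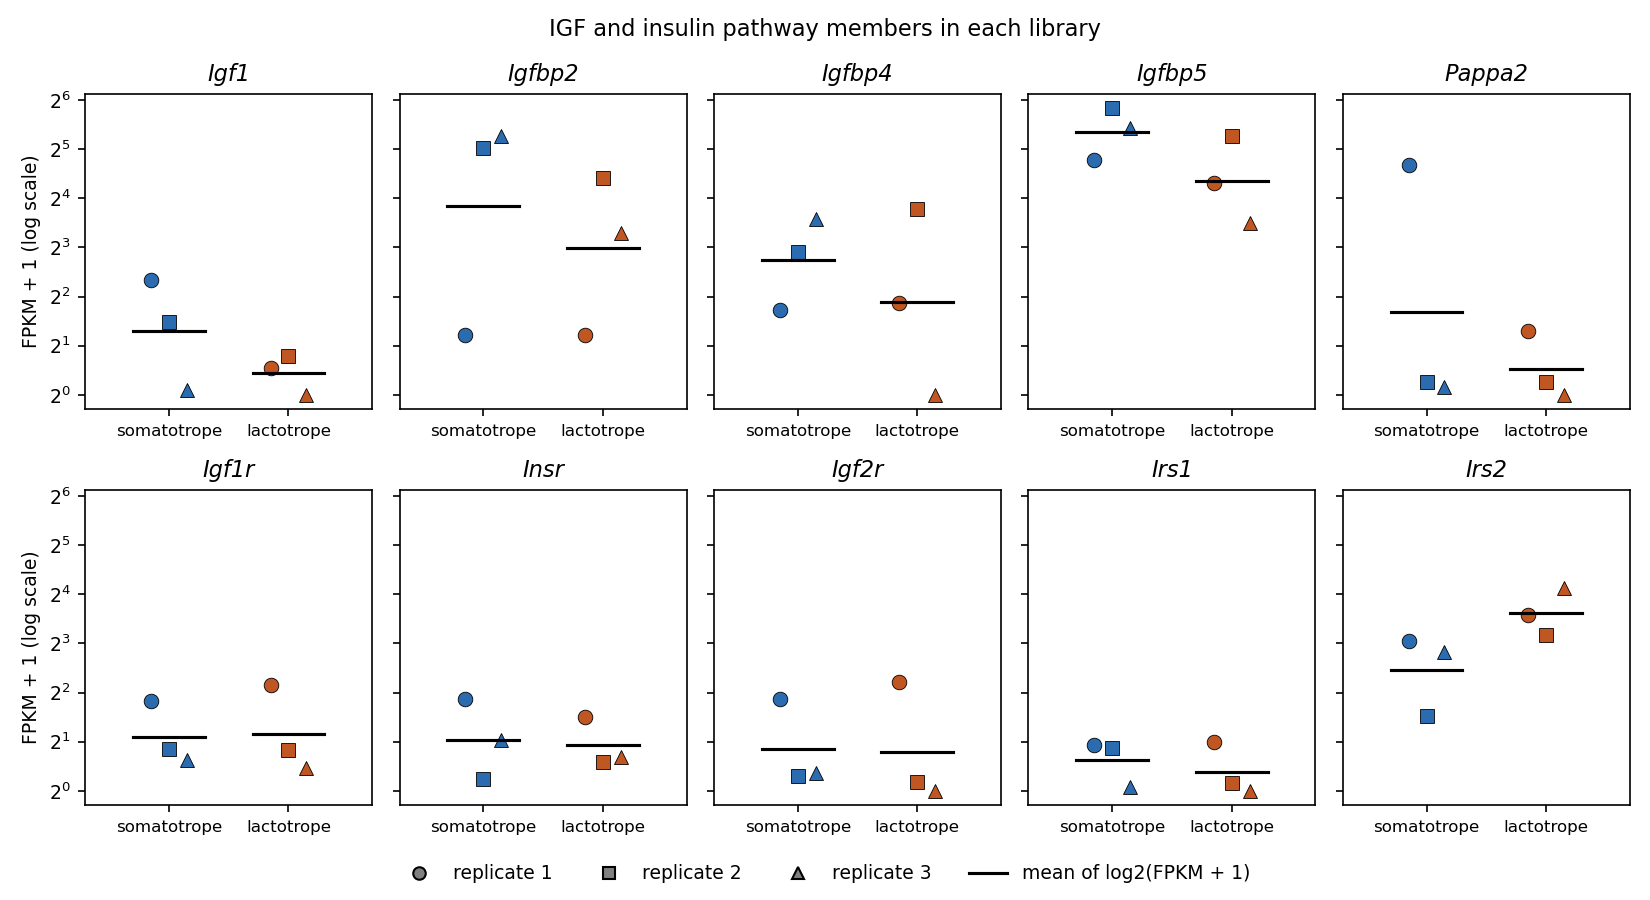
The log axis shows FPKM + 1 of the 10 members, with somatotrope and lactotrope libraries apart, a marker shape for each replicate number and a black bar for the group mean taken on the log2 scale. Irs2 in all 3 lactotrope libraries (7.94 to 16.4 FPKM) lies above all 3 somatotrope libraries (1.88 to 7.24 FPKM), and the other 9 members overlap.

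The comparison of the cell types asked which members differed between somatotropes and lactotropes. None of the 9 tested members passed limma's test (Benjamini-Hochberg adjusted p = 1.00 for each), and the share of all tested genes that passed was 0%. At an unadjusted p under 0.05 there were 0 of the 9 members and 112 of the 11642 tested genes. With the replicate number as a block in limma, 0 genes passed after adjustment, and an unadjusted p under 0.05 was reached by 1271 genes and 2 members. These were Irs2 (limma adjusted p = 0.339) and Igfbp5 (limma adjusted p = 0.386). Irs2 was the member whose groups did not overlap, with all 3 lactotropes above. That order held for 1.15% of the tested genes, and the opposite order, with all 3 somatotropes above, held for 2.51% of them and for 0 members. Within same-numbered pairs, Igf1, Igfbp2 and Igfbp5 were higher in the somatotrope library in all 3 pairs, as were 22.9% of tested genes. Irs2 was higher in the lactotrope library in all 3 pairs, as were 11.2% of tested genes. The median difference of the 9 tested members, somatotrope minus lactotrope on the log2(FPKM + 1) scale, was 0.85, beside 0.18 over all tested genes. Single libraries set this median: it was -0.30 without somatotrope 1, where that of all genes was -0.12, and -0.0039 without lactotrope 3, where that of all genes was -0.13. It was 0.52 without somatotrope 2, beside 0.30 for all genes, and 0.29 without somatotrope 3, beside 0.38. Without lactotrope 1 it was 0.76, beside 0.58 for all genes, and without lactotrope 2 it was 1.03, beside 0.08. The shift of all genes was 0.05 after median-ratio scaling. For low genes the added 1 FPKM shrinks the differences. Taken alone in a two-sided exact permutation test, Irs2 had p = 0.1, the smallest that 3 against 3 libraries allow, and the other members had p = 0.2 to 1.

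**Figure D2:**
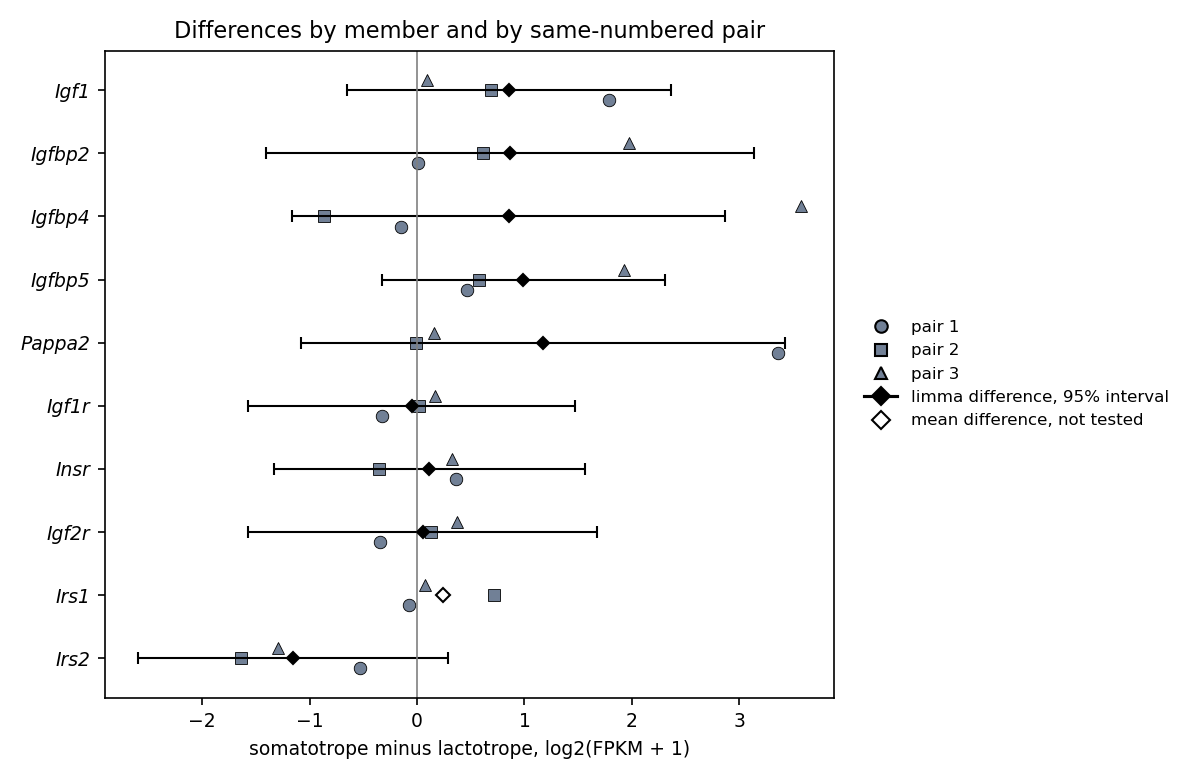
Somatotrope minus lactotrope on the log2(FPKM + 1) scale for each member, with 1 grey symbol per same-numbered pair and a black diamond with its 95% interval from limma (an open diamond for Irs1, which was not tested). The 3 pairs of Irs2 lie at -0.53 to -1.64, those of Igfbp5 at 0.46 to 1.93, and each of the 9 intervals, from the fit without a block, spans 0. With the block they are -1.97 to -0.34 for Irs2 and 0.19 to 1.78 for Igfbp5.

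Irs2 encodes an adaptor that is phosphorylated by the insulin and IGF-1 receptors, and its own transcription is known to be raised by FoxO factors when insulin signalling is low and by cyclic AMP through CREB. Somatotropes 1 to 3 had 7.24, 1.88 and 6.07 FPKM of Irs2, and lactotropes 1 to 3 had 10.9, 7.94 and 16.4 FPKM. The lowest lactotrope library lay just above the highest somatotrope library. The means were 5.06 ± 2.82 FPKM (SD, n = 3) in somatotropes and 11.7 ± 4.27 FPKM (SD, n = 3) in lactotropes, a ratio of 2.32. By pair, the lactotrope level was 1.51, 4.23 and 2.69 times the somatotrope level. The log2 difference was -1.16 (SE 0.67, 95% interval -2.60 to 0.29), which did not pass limma's test (adjusted p = 1.00). It was -0.69 without somatotrope 2, the library with the lowest value. The sign was the same in all 20 alternatives run, but many of these could not change it. As the groups did not overlap, leaving out libraries keeps the sign, and some other settings, such as the replicate block, return the same difference. In lactotrope 3, where Prl took up 53.0% of the summed FPKM, Irs2 exceeded 94.3% of the 22869 genes. It exceeded 80.1% and 85.5% of them in lactotropes 1 and 2 and 63.1% to 82.0% in the somatotropes, so by this rank within a library the groups overlapped. Between the cell types, leukocyte markers ran in the same direction as Irs2, with 15 of 16 higher in the lactotrope library in all 3 pairs, beside 11.2% of tested genes. Their sums were 309, 6246 and 3224 FPKM in somatotropes 1 to 3 and 934, 13850 and 5108 FPKM in lactotropes 1 to 3, with none at 0. Within each cell type the order differed: somatotrope 2 and lactotrope 2 had the highest leukocyte sum and the lowest Irs2. The part of leukocytes in the Irs2 level was not tested.

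Irs1 encodes the paralogous adaptor, through which IGF-1 and insulin signal in many growing tissues. Somatotropes 1 to 3 had 0.896, 0.840 and 0.0532 FPKM of Irs1. Lactotropes 1 and 2 had 0.996 and 0.120 FPKM, and lactotrope 3 a listed 0. The groups overlapped, and the mean difference on the log2(FPKM + 1) scale was 0.24. Irs2 was the more abundant adaptor in all 6 libraries. The log2 ratio of Irs2 to Irs1, each with 1 FPKM added, was 1.84 ± 1.08 (SD, n = 3) in somatotropes and 3.23 ± 0.80 (SD, n = 3) in lactotropes. The difference of these ratios was -1.39, with an exact permutation p = 0.2 (two-sided), or 1 after adjustment over the 6 ratios examined. It was -0.80 without somatotrope 2 and -2.20 with a pseudocount of 0.1.

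The stretches just upstream of the start sites of Irs1 and Irs2 are shown because these adaptors of like function stood at different levels, and Irs2 alone among the members separated the cell types. They are 250 bases before each start, 5′ to 3′ on the gene's strand, from RefSeq on build GRCm38.p6. The Irs1 window is chr1:82291440-82291689 and the Irs2 window is chr8:11008930-11009179, both on the minus strand. Capitals mark TGTTTTG, a core of insulin response elements that FoxO factors bind, and CACGTG, an E-box core.
Irs1: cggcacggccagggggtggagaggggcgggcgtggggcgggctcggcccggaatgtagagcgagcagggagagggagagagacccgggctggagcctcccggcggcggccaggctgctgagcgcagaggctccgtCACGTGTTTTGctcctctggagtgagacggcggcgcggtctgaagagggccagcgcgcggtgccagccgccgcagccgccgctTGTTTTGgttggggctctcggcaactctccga
Irs2: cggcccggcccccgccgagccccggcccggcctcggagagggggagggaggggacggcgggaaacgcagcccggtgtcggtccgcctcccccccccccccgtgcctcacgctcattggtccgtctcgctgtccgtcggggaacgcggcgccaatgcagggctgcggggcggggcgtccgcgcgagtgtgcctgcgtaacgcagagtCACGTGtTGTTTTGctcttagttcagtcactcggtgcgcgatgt

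Both windows held CACGTG next to TGTTTTG. In Irs2 the E-box core spans positions -44 to -39 and the TGTTTTG core -37 to -31, counted back from the start site. In Irs1 the E-box core at -115 to -110 overlaps a TGTTTTG core at -111 to -105, and a further TGTTTTG lies at -32 to -26. Searched on both strands, TGTTTTG was found in 5.56% and CACGTG in 6.02% of 32851 windows of this length. The letters TGTTTAC (3.17% of windows), TATAAA (12.4%), GGGCGG (32.7%) and TGACG (17.8%) were searched too. GGGCGG was found in both genes, TGACG in Irs1 and not in Irs2, and TGTTTAC and TATAAA in neither. A match describes these letters and shows no binding. Of the 10 members, 9 had an entry in the RefSeq table, and outside Irs1 and Irs2 none of these 9 held TGTTTTG in its window.

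The receptor transcripts were low and showed no common direction. Igf1r, the receptor tyrosine kinase for IGF-1, had levels of 2.54, 0.798 and 0.548 FPKM across somatotropes 1 to 3. Across lactotropes 1 to 3 they were 3.46, 0.776 and 0.379 FPKM. Replicate 1 was the high library in both cell types and the groups overlapped. The log2 difference was -0.05 (SE 0.71, 95% interval -1.57 to 1.47). Insr, the insulin receptor, had 2.64, 0.176 and 1.03 FPKM across somatotropes, against 1.83, 0.502 and 0.620 FPKM across lactotropes, with a log2 difference of 0.11 (SE 0.67, 95% interval -1.34 to 1.56). Its somatotrope libraries reached both above and below all 3 lactotropes.

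Igf2r, the receptor that takes IGF-2 to lysosomes and also carries mannose 6-phosphate tagged enzymes, had 2.65, 0.236 and 0.292 FPKM across somatotropes 1 to 3, against 3.63, 0.128 and 0.0011 FPKM across lactotropes 1 to 3. As with Igf1r, replicate 1 was high in both cell types and the order of the cell types there was opposite to that in replicates 2 and 3. The log2 difference was 0.05 (SE 0.75, 95% interval -1.57 to 1.68). Each interval holds more than 1 log2 unit in either direction, and the signs of all 3 receptors turned under some alternatives. Within libraries, the log2 ratio of Igf1r to Insr, each with 1 FPKM added, was 0.06 ± 0.51 (SD, n = 3) in somatotropes and 0.22 ± 0.44 (SD, n = 3) in lactotropes (exact permutation p = 0.7, adjusted 1). Formed likewise, the log2 ratio of Igf1r to Igf2r was 0.25 ± 0.29 and 0.35 ± 0.37 (exact permutation p = 0.8, adjusted 1). The added 1 FPKM pulls ratios of such low values toward 0, so these do not show equal receptor levels. With 0.1 FPKM added instead, the difference of the ratios, somatotrope minus lactotrope, went from -0.16 to 0.0037 for Igf1r to Insr. For Igf1r to Igf2r it went from -0.10 to -0.68.

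The depth behind these low levels could be estimated in replicate 1. With transcript lengths from GENCODE M21, which differ a little from those the authors used, Igf1r rested on about 849 fragments in somatotrope 1 and 695 in lactotrope 1. Igf2r rested on about 688 and 568, Insr on 721 and 302, and Irs1 on 240 and 161. Igfbp2 was the thinnest member in replicate 1 with a length at hand, at about 51 and 31 fragments.

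Igf1 encodes the ligand itself. Somatotropes 1 to 3 had 4.06, 1.81 and 0.0693 FPKM of Igf1. Lactotropes 1 and 2 had 0.470 and 0.741 FPKM, and lactotrope 3 a listed 0. Each somatotrope library exceeded the lactotrope library of the same number, by 8.64 times in pair 1 and 2.44 times in pair 2. In pair 3 this rested on 0.0693 FPKM against the listed 0. Somatotrope 3 lay below lactotropes 1 and 2, so the groups overlapped. The means were 1.98 ± 2.00 FPKM (SD, n = 3) and 0.403 ± 0.375 FPKM (SD, n = 3). The log2 difference of 0.86 (SE 0.70, 95% interval -0.65 to 2.37) did not pass limma's test (adjusted p = 1.00), and it was 0.34 without somatotrope 1 and 1.46 without somatotrope 3.

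The table held 5 Igf1 transcript rows on chromosome 10 (mm9). The row used, NM_184052, runs from 87323856 to 87378515 on the plus strand and ends upstream of the other 4, which all end at 87399792. In somatotrope 1 it had 4.06 FPKM where the other 4 had 2.87 to 2.89 FPKM. In lactotrope 2 the rows had 0.735 to 0.741 FPKM apart from NM_001111276 at 1.60 FPKM. That row had 1.84 FPKM in somatotrope 2. It was listed at 0 in somatotrope 3 and in lactotrope 3, so the order in pair 3 depended on the row used. The sources used here do not say how fragments shared by overlapping transcripts were assigned. With the 5 rows summed, the log2 difference was 1.29. As several rows had nearly the same values, this sum may count the same fragments more than once, and the added 1 FPKM shrinks it less. It is not read as a larger difference. Macrophages also make IGF-1, and leukocyte markers were present in every library. Their sum over 16 of 17 listed genes with a row, Cd74 and C1qb the most abundant, was 309, 6246 and 3224 FPKM in somatotropes 1 to 3 and 934, 13850 and 5108 FPKM in lactotropes 1 to 3. Between the cell types, their direction was the opposite of that of Igf1. Among lactotropes, lactotrope 2 had the highest leukocyte sum and the highest Igf1. Among somatotropes, somatotrope 1 had the lowest leukocyte sum and the highest Igf1. The part of leukocytes in the Igf1 level was not tested.

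Igfbp5 encodes a binding protein that associates with extracellular matrix and is a substrate of PAPP-A2. Its levels were 26.3, 56.3 and 42.1 FPKM across somatotropes 1 to 3, against 18.8, 37.4 and 10.4 FPKM across lactotropes 1 to 3. Lactotrope 2 lay above somatotrope 1, so the groups overlapped, while each pair had the somatotrope library higher, by 1.40, 1.51 and 4.07 times. The means were 41.5 ± 15.0 FPKM (SD, n = 3) and 22.2 ± 13.8 FPKM (SD, n = 3), a ratio of 1.87. The log2 difference was 0.99 (SE 0.61, 95% interval -0.33 to 2.31), which did not pass limma's test (adjusted p = 1.00) and was 0.56 without lactotrope 3. In each of the 6 libraries Igfbp5 exceeded 88.4% to 98.2% of the 22869 genes.

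Igfbp2, whose product is a major circulating IGF-binding protein, had a different spread. It was near 1 FPKM in both replicate 1 libraries, at 1.34 in somatotrope 1 and 1.32 in lactotrope 1. It was far higher in the other libraries, at 31.6 and 37.6 FPKM in somatotropes 2 and 3 and 20.3 and 8.87 FPKM in lactotropes 2 and 3. The pair folds were 1.01, 1.55 and 4.25, all toward somatotropes. The log2 difference of 0.86 (SE 1.05, 95% interval -1.41 to 3.13) did not pass limma's test (adjusted p = 1.00), and without lactotrope 1 it was -0.02. In mm9, Igfbp2 (chromosome 1, 72871054 to 72899045, plus strand) and Igfbp5 (chromosome 1, 72904639 to 72921439, minus strand) are neighbours that point toward each other with 5.59 kb between them. Their ratio differed widely between replicates and little between the cell types of a replicate. With 1 FPKM added to each, the log2 ratio of Igfbp5 to Igfbp2 was 3.54, 0.81 and 0.16 across somatotropes 1 to 3, against 3.09, 0.85 and 0.20 across lactotropes 1 to 3 (exact permutation p = 1, adjusted 1).

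Igfbp4, whose product is cleaved by PAPP-A and restrains IGF action, had no common direction. Its levels were 2.30, 6.52 and 10.9 FPKM across somatotropes 1 to 3, against 2.66 and 12.7 FPKM in lactotropes 1 and 2 and a listed 0 in lactotrope 3. Lactotropes were higher in pairs 1 and 2, and the listed 0 in lactotrope 3 set the sign of the mean difference. The log2 difference was 0.85 (SE 0.93, 95% interval -1.16 to 2.87) with all libraries and -0.09 without lactotrope 3. The log2 ratio of Igfbp5 to Igfbp4, each with 1 FPKM added, was 2.61 ± 0.66 (SD, n = 3) in somatotropes and 2.47 ± 1.01 (SD, n = 3) in lactotropes (exact permutation p = 0.9, adjusted 1).

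Summed, the 3 binding protein transcripts reached 29.9, 94.4 and 90.7 FPKM in somatotropes 1 to 3 and 22.8, 70.5 and 19.2 FPKM in lactotropes 1 to 3. Igfbp5 made up 87.8% and 82.5% of this sum in replicate 1 and 46.4% to 59.6% in the other 4 libraries. Set against the summed receptors (Igf1r, Insr and Igf2r), summed binding protein FPKM was 3.82 and 2.56 times as high in somatotrope 1 and lactotrope 1 and 19.2 to 78.0 times in the other 4 libraries. Markers of non-endocrine stem and folliculostellate cells of the gland were, like this sum, higher in the somatotrope library of each pair. Their sum over 10 of 11 listed genes with a row was 176, 1583 and 966 FPKM across somatotropes 1 to 3, against 95.1, 539 and 136 FPKM across lactotropes 1 to 3. Mia1 made up most of it, and Aldh1a2, the next most abundant, had 24.8, 55.2 and 67.7 FPKM in somatotropes and 17.0, 37.6 and 5.08 FPKM in lactotropes. Of the 10, 7 were higher in the somatotrope library in all 3 pairs, beside 22.9% of tested genes. Fxyd1, S100b and Gfra3, named after their values were seen, were among those at 0 in lactotrope 3. Their part in the Igfbp5 and Igfbp2 levels was not tested.

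**Figure D3:**
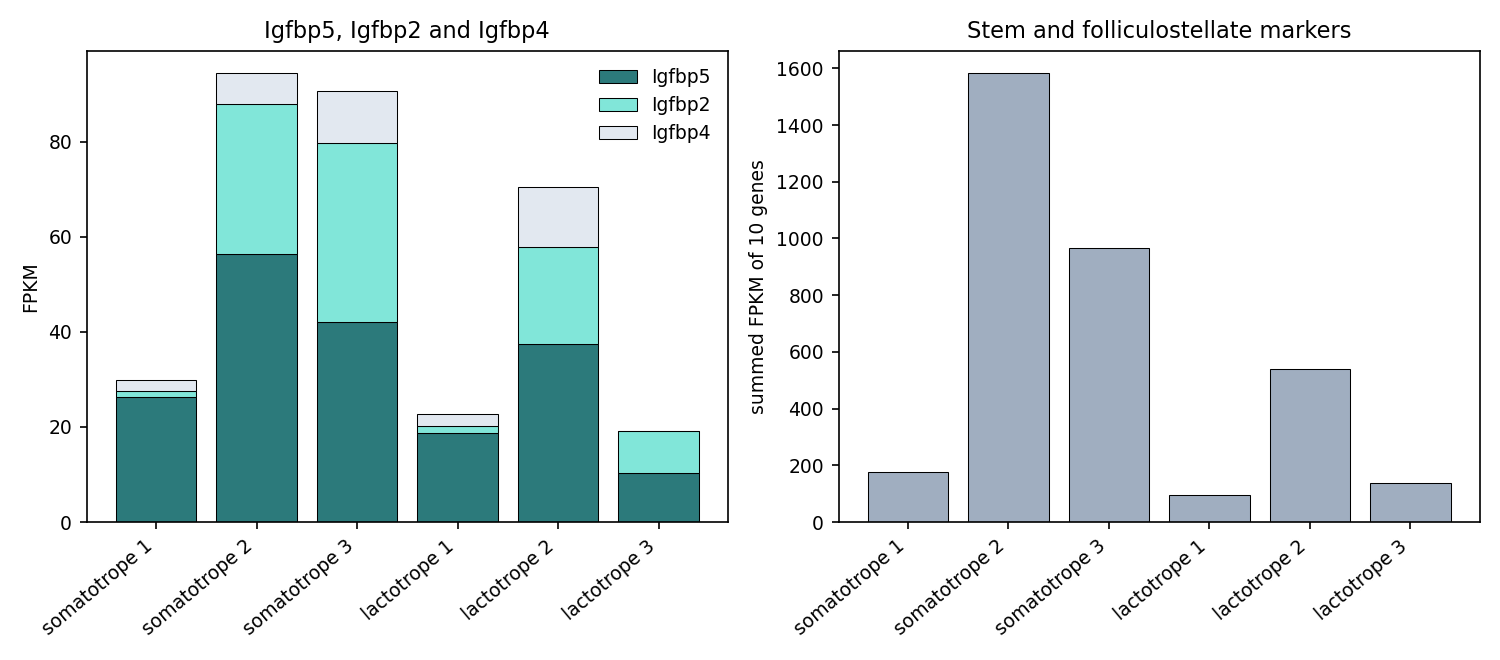
Left, FPKM of Igfbp5, Igfbp2 and Igfbp4 stacked for each library. Right, the summed FPKM of 10 stem and folliculostellate marker genes in the same libraries. Somatotrope 2 is highest in both panels, at 94.4 and 1583 FPKM, and in each same-numbered pair the somatotrope bar is the taller one.

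Pappa2, which encodes the protease PAPP-A2, was high in a single library. It stood at 24.5 FPKM in somatotrope 1, on about 6815 fragments, and at 0.194 and 0.114 FPKM in somatotropes 2 and 3. The lactotropes had 1.47, 0.201 and a listed 0 FPKM. In pair 1 the somatotrope level was 16.6 times the lactotrope level, and in pair 2 the values were nearly equal. The means, 8.26 ± 14.0 FPKM (SD, n = 3) and 0.558 ± 0.799 FPKM (SD, n = 3), therefore describe no typical library. The log2 difference was 1.17 (SE 1.04, 95% interval -1.08 to 3.42), did not pass limma's test (adjusted p = 1.00) and was -0.32 without somatotrope 1. Set against its substrate gene, the log2 ratio of Pappa2 to Igfbp5, each with 1 FPKM added, was -0.10 in somatotrope 1, -3.00 in lactotrope 1 and -3.51 to -5.58 in the other 4 libraries. In those 4 libraries Pappa2 was at most 0.201 FPKM, so the ratio there mainly reflects the level of Igfbp5. The row lies on chromosome 1 of mm9, from 160641862 to 160887569 on the minus strand.

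Genes with the profile most like a member's were found by the root mean square difference of log2(FPKM + 1) over the 6 libraries, after each gene's own mean was subtracted. The 6 libraries share replicate numbers in pairs, and with 11642 genes to search a close match carries little weight. For Pappa2, whose own profile had a root mean square of 1.65, the closest were 1810008I18Rik (0.26), Ugt8a (0.41) and 4930573O16Rik (0.45). Ugt8a, a galactosyltransferase gene of glycolipid synthesis, had 11.7 FPKM in somatotrope 1 and 0 to 1.58 FPKM elsewhere. For Irs2 (0.80), they were Eno3 (0.23), a muscle-type enolase gene, Hsp90aa1 (0.26), a chaperone gene, and Meg3 (0.28), a long non-coding RNA. For Igfbp5 (0.77), they were Entpd2 (0.10), Ttc24 (0.13) and Il17rc (0.13). For Igfbp2 (1.67), they were Cxcl12 (0.37), a chemokine gene, Marcksl1 (0.47) and Apod (0.48). Igfbp4 (1.29) had Mfng (0.40), Aldh2 (0.42) and Lamb2 (0.43), and Igf1 (0.82) had 2010005H15Rik (0.20), Wisp1 (0.24) and Sertad4 (0.25). The receptors, which were high in replicate 1 in both cell types, had closer neighbours. These were Ccdc45 (0.04), Fam18a (0.06) and Tspyl2 (0.08) for Igf1r (0.63), Prkar1b (0.07), Srbd1 (0.09) and Xbp1 (0.09) for Igf2r (0.87), and Ptpn2 (0.09), Mrpl53 (0.09) and Itpa (0.10) for Insr (0.55).

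Other genes of the pathway were taken from 3 lists, and 49 of them were tested. None passed limma's test, and 2 had an unadjusted p under 0.05, or 9 with the replicate block. The median log2 difference over the 49 was 0.19, beside 0.18 over all tested genes, and leaving out somatotrope 1 made it -0.22, leaving out lactotrope 3 made it -0.17 and leaving out lactotrope 1 made it 0.71.

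The list of other ligands, receptors and binding partners had 15 genes, of which 3 were tested. Htra1, a secreted serine protease gene, had a log2 difference of 0.81 (adjusted p = 1.00 in limma). Igfbp7 and Igfbp6 had 0.68 and 0.61, and without somatotrope 3 these were 0.039 and 0.032. Igfbp6 had 0.053 without lactotrope 1. Igfbp6, whose product prefers IGF-2, was higher in the somatotrope library in all 3 pairs. The others averaged under 1 FPKM, and the following are named after their values were seen. Igf2, the second IGF ligand, did not exceed 0.495 FPKM in any library, and Ins2 was listed at 0 in all 6. Igfbp3, the main carrier of IGF-1 in blood and the other known substrate of PAPP-A2, had 1.46, 0.965 and 2.03 FPKM in somatotropes 1 to 3 and 0.534, 0.251 and 0.0157 FPKM in lactotropes 1 to 3. All 3 somatotropes lay above all 3 lactotropes, an order that held for 2.51% of the tested genes. Igfbp3 was too low to enter the test. Pappa, the paralogue of Pappa2, had its highest level in the same library, at 2.14 FPKM in somatotrope 1 and at most 0.175 FPKM in the others.

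Adaptors and signal transducers numbered 39, of which 35 were tested. Their differences ran from -0.96 to 1.77 with a median of 0.05, which ranged from -0.34 (without somatotrope 1) to 0.73 (without lactotrope 1) when a library was left out. In every pair, 9 of the 35 favoured the somatotrope library and 3 the lactotrope library, beside 22.9% and 11.2% of all tested genes. Eif4ebp1, a translation repressor that mTOR inactivates, had the largest difference at 1.77, with 25.5, 14.4 and 4.11 FPKM across somatotropes 1 to 3, against 4.16 and 9.17 FPKM in lactotropes 1 and 2 and a listed 0 in lactotrope 3. Gab1, a docking adaptor, had a difference of 1.61, and Grb10, an adaptor that inhibits the insulin and IGF-1 receptors, had 1.25. The somatotrope level of Grb10 was highest in somatotrope 1, at 17.1 FPKM against 0.563 to 2.92 FPKM in the other libraries. Akt1 and Shc1 had differences of 0.81 and 0.82, and each was higher in the somatotrope library in all 3 pairs. Without lactotrope 3, the library with the most genes at 0, the difference was 0.0025 for Akt1, 0.35 for Shc1 and 0.82 for Eif4ebp1. Without somatotrope 1, that of Grb10 was 0.41. Pik3cd, a phosphoinositide 3-kinase subunit gene typical of leukocytes, had -0.96. It was higher in lactotropes in pairs 1 and 2, where it reached 3.57 FPKM in lactotrope 2, the library with the highest leukocyte marker sum, and it was under 0.03 FPKM in both libraries of pair 3. The one transducer with groups that did not overlap, named after its values were seen, was Pik3r2, a regulatory subunit gene, at 6.11 to 11.6 FPKM in somatotropes and 12.0 to 14.9 FPKM in lactotropes, a difference of -0.51. That order held for 1.15% of all tested genes. None of these genes passed limma's test (adjusted p = 1.00 for each).

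Genes that respond to FoxO factors or insulin numbered 13, of which 11 were tested, and their median difference was 0.22. They did not share a direction: in every pair, 4 of the 11 favoured the somatotrope library and 2 the lactotrope library, against the same background of 22.9% and 11.2%. Klf15, a transcription factor gene of fasting metabolism, had 14.0, 5.29 and 7.86 FPKM in somatotropes 1 to 3. Lactotropes 1 to 3 had 1.80, 1.32 and 1.71 FPKM of Klf15. Its log2 difference was 1.86 (SE 0.69), and its groups did not overlap, an order that held for 2.51% of all tested genes. Trib3, an inhibitor of AKT, had a difference of 1.28, Slc2a1, the glucose transporter GLUT1 gene, had 1.08, and Ccng2, a cyclin gene induced by FoxO factors, had 0.51. These 3 rested on single libraries: Trib3 had 0.25 without somatotrope 1, and without lactotrope 3 Slc2a1 had 0.17 and Ccng2 0.046. Ccng2 also had 0.18 without somatotrope 1. In the direction of Irs2, Cited2, a transcriptional co-regulator gene, had -2.04, and Egr1, an immediate early gene that insulin and other stimuli induce, had -1.22. None passed limma's test (adjusted p = 1.00 for each).

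**Figure D4:**
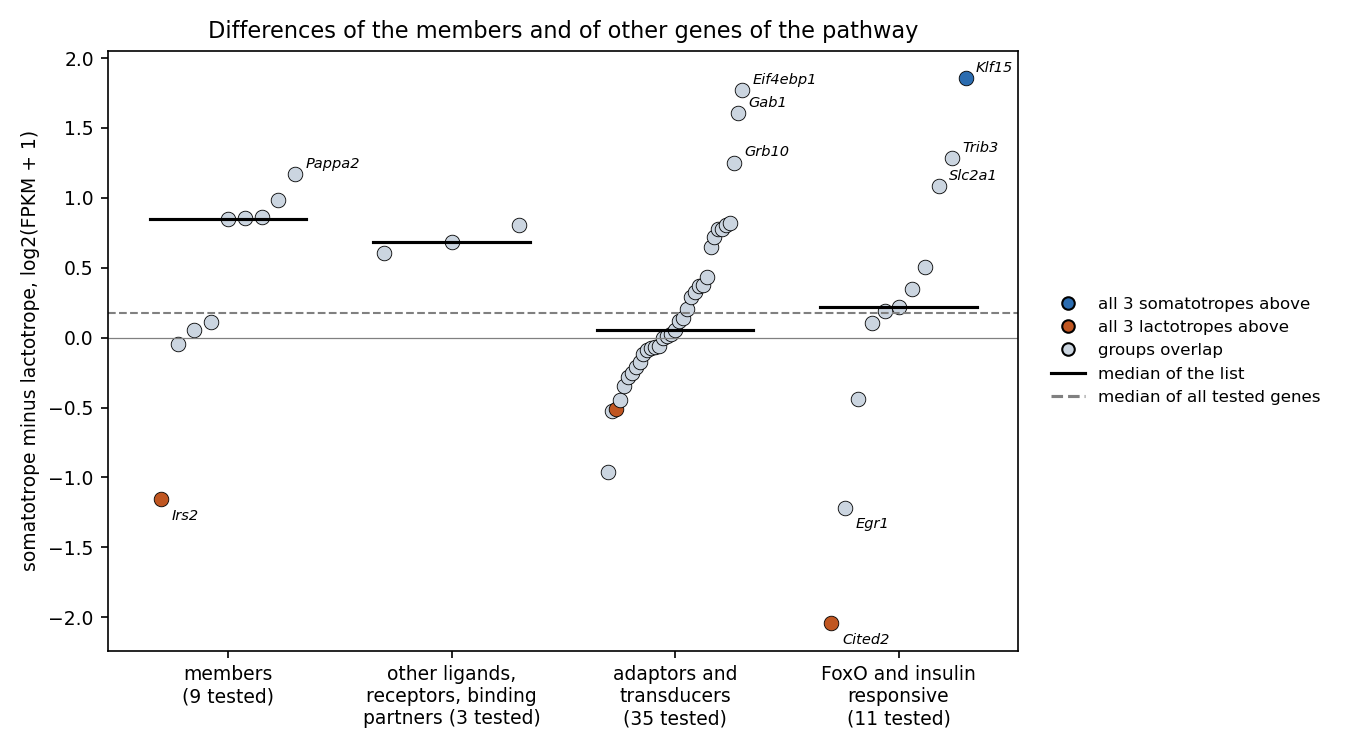
Somatotrope minus lactotrope on the log2(FPKM + 1) scale for the tested members and for the tested genes of 3 further lists, 1 point per gene, coloured where all 3 libraries of one cell type lie above the other 3, with a black line at each list's median and a dashed line at the median of all tested genes (0.18). Coloured points are Irs2, Pik3r2 and Cited2 toward lactotropes and Klf15 toward somatotropes. Over all tested genes these orders held for 1.15% and 2.51%.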

How the data were processed

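Libraries of 3 somatotrope and 3 lactotrope samples were sequenced. Per the labels' protocols, sorting was into Trizol LS, and the NuGen Ovation V2 kit amplified the RNA. The submitters' processing notes name TopHat, edgeR, bcl2fastq 2.17.1.14 and the build mm9, and no source used here tells how fragments were assigned to transcripts. FPKM values were deposited for 30399 transcript rows, with no counts, so no count test was run. The 889 rows lacking a symbol were left out. As log2(FPKM + 1), genes averaging 1 FPKM or more were tested together with limma 3.58.1 in R 4.3.3 (intensity trend, Benjamini-Hochberg adjustment at 0.05, no block), and the code was tested on simulated data. Titles call the libraries biological replicates without naming animals, so each p reflects only the spread among these libraries. As a check of pairing, the deviations of same-numbered libraries from their group means were compared, giving correlations of 0.763, 0.613 and 0.341 over the tested genes, and the numbers in the titles were taken as pairs. Depth was read from olfactory receptor genes in replicate 1, where 92.3% of 285 and 90.3% of 31 low values lay within 0.1 of a whole fragment. The members and lists were chosen with earlier results of these data known. Genes named are the members, Gh, Prl, up to 6 per further pathway list by unadjusted p, the 2 most abundant markers of a cell type and the 3 genes most like each tested member. Alternatives covered the pseudocount, filter, scaling, variance model, pairing, left-out libraries and summed rows. Medians of lists and other pathway genes with 1 library left out, and counts at an unadjusted p with the block, were added after seeing the data. The values of 1 marker gene are not reported here.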

Additional observations from a re-analysis of the deposited data

How the results depend on the processing

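No member and no other pathway gene passed limma's test under any of 20 alternatives. Igf1, Irs2, Igfbp5 and the ratio of Irs2 to Irs1 kept their sign in all those run. Some settings, such as the replicate block, return the same difference by design. For Irs2, whose groups did not overlap, leaving out libraries could not change the sign. Over all genes, 0 passed in the fit reported, 9 with array weights (a weight of 6.24 for lactotrope 2), 43 with a replicate block and array weights, and 0 to 3 with 1 library left out (3 without somatotrope 1). The replicate block alone, with the titles' numbers as pairs, called 0 genes and changed no call; Irs2 had adjusted p = 0.339 and Igfbp5 0.386 in limma with it. Differences are on the log2 scale, somatotrope minus lactotrope, and the cause of each change of sign was not tested. A pseudocount of 0.1 gave 0.015 for Igf1r, 0.0037 for Igf1r/Insr and -0.85 for Igfbp5/Igfbp4, and one of 0.5 gave -0.13 for the last. Quantile normalization gave -0.13 for Igf2r and -0.074 for Insr. Igfbp5/Igfbp4 was -0.079 with median-ratio scaling and -0.0090 without Gh and Prl. Array weights gave -0.40 for Igfbp4, and with the block -0.036 for Igf2r. Replicates 2 and 3 alone gave 0.092 for Igf1r, -0.012 for Insr, 0.10 for Igf1r/Insr, -0.10 for Igfbp5/Igfbp4, -0.039 for Igfbp5/Igfbp2 and -1.18 for Pappa2/Igfbp5. Replicates 1 and 2 alone gave -0.11 for Igf2r and -0.51 for Igfbp4. With 1 library left out, the ranges were -0.41 to 0.45 for Igf1r, -0.46 to 0.76 for Igf2r, -0.30 to 0.52 for Insr, -0.017 to 2.171 for Igfbp2, -0.090 to 1.80 for Igfbp4 and -0.32 to 1.94 for Pappa2. For ratios they were -0.44 to 0.066 for Igf1r/Insr, -0.36 to 0.65 for Igfbp5/Igfbp4, -0.89 to 0.98 for Igfbp5/Igfbp2, -1.59 to 1.15 for Pappa2/Igfbp5 and -0.31 to 0.050 for Igf1r/Igf2r. A mean of at least 5 FPKM left no value for Igf1, Igf1r, Igf2r, Insr and Pappa2. Depth is unknown outside replicate 1, so precision of low values there could not be given.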
